A study of Mus musculus with 8 samples.

Results

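The 10 transcription factors examined here pattern the somites and the paraxial mesoderm, and their RNA was followed in the caudal urogenital ridge of mouse embryos with and without Sox11. They are Pax1, Pax9, Nkx3-2 and Uncx, factors of the sclerotome, Pax3 and Pax7, factors of the dermomyotome, Meox1, Meox2 and Tcf15, which act across the whole somite, and Tbx6, a factor of the presomitic mesoderm. The members were chosen by name, with earlier results of these data known. All 10 of 10 were among the 19356 genes measured, each with a single probe set that carries exactly 1 gene symbol. The tissue came from embryos at E10.75 on a mixed genetic background. One group was wildtype and the other Sox11-/-, with 4 arrays each and no treatment in either. The labels call the 4 replicates of a genotype independent without saying how many embryos gave each one, so the p-values measure the spread between these RNA samples.

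Somites are blocks of paraxial mesoderm that bud off from the presomitic mesoderm on both sides of the neural tube. Each block then splits into a ventral sclerotome, which forms vertebrae and ribs, and a dorsal dermomyotome, which forms skeletal muscle and the dermis of the back. The urogenital ridge arises from the intermediate mesoderm, which lies just lateral to the somites. Some of these factors are used outside the somite as well: Uncx is also known from the developing kidney and nervous system, Meox1 from the mesenchyme of the early kidney, Meox2 from limb muscle and mesenchyme, Pax3 and Pax7 from the dorsal neural tube and neural crest, and Pax1 and Pax9 from pharyngeal endoderm.

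Of the 10 factors, 3 had lower signal on every knockout array than on any wild type array: Uncx, Meox1 and Meox2. Uncx and Meox2 fell, and Meox1 had the largest difference of the 10 but missed the threshold. The other 7 factors, among them the sclerotome factors Pax1, Pax9 and Nkx3-2, the dermomyotome factors Pax3 and Pax7 and the presomitic factor Tbx6, did not pass and lay between -0.09 and 0.16 on the log2 scale. Differences are knockout minus wild type in log2 signal, tested with limma over all 19356 genes, and a gene passed at a Benjamini-Hochberg adjusted p under 0.05. Thus 2 of 10 members were lower and 0 higher, where 1.08% of all genes were lower and 0.362% higher. The groups did not overlap for 3 of the 10 members, against 10.5% of all genes. Since earlier results of these data were known when the members were chosen, these counts are a description. The median difference over the 10 members was 0.02, beside 0.00 over all genes.

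The arrays give no count of molecules, and the number of arrays limits the precision. Signals of different probe sets cannot be set against each other as amounts of RNA, but where a gene lies in the range of all genes shows how near it is to the lower end, where array signal understates differences. Pax3, Pax7 and Pax9 lay at the 21.9th, 23rd and 24.9th percentile of mean signal, Tbx6 at the 28.4th, Nkx3-2 at the 34.2th and Pax1 at the 34.8th. Tcf15 lay at the 48.8th percentile. Meox1, Uncx and Meox2 lay at the 65.1th, 68.4th and 75.7th and were the 3 members above the median. No detection call was used here, so whether the 6 factors of low signal were expressed at all in this tissue was not measured. The targeted gene checks the labels: Sox11 signal was 11.76, 11.81, 11.72 and 11.86 on wild type replicates 1 to 4 and 9.24, 9.13, 8.93 and 9.12 on knockout replicates 1 to 4. All knockout arrays were below all wild type arrays (-2.69, SE 0.08, limma adjusted p = 6.36e-08); where the probes lie relative to the altered part of the gene is not known here. Arrays correlated with each other at 0.987 to 0.995 across genes, which are not independent replicates.

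**Figure D1:**
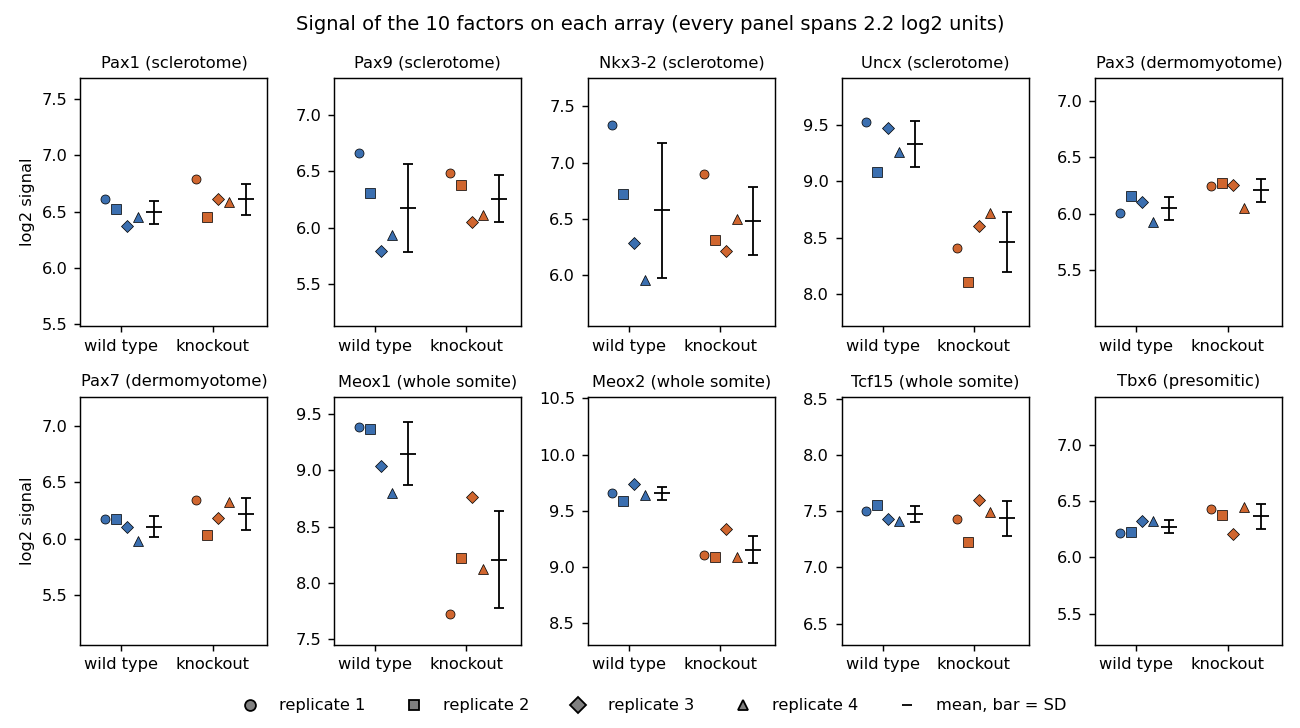
Log2 signal of each of the 10 factors on each array, with wild type in blue, Sox11 knockout in orange, a marker shape for each replicate number, and the mean with its SD (n = 4) in black. The genotypes part without overlap for Uncx, Meox1 and Meox2, while Nkx3-2 and Pax9 spread widely among the wild type arrays.

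Among the sclerotome factors, Uncx fell. Uncx encodes a paired-type homeodomain protein that marks the caudal part of each sclerotome and is needed there for the pedicles of the vertebrae and the proximal ribs. Its signal was 9.52, 9.08, 9.48 and 9.26 on wild type replicates 1 to 4 and 8.40, 8.11, 8.61 and 8.71 on knockout replicates 1 to 4. The lowest wild type array (replicate 2) was still above the highest knockout array (replicate 4). The mean went from 9.34 ± 0.20 to 8.46 ± 0.27 (SD, n = 4 each), so Uncx fell by 0.88 in log2 signal (SE 0.14), 1.84-fold, with a limma adjusted p of 0.0148. Leaving out knockout replicate 1 put Uncx at -0.86 with a limma adjusted p of 0.0505, just short of passing. In bulk tissue, fewer cells that express a gene and less RNA per cell cannot be told apart, and this holds for every difference given here.

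The other sclerotome factors gave no call. Pax1, a paired-box factor that keeps sclerotome cells dividing and turns on the cartilage programme together with Pax9, read 6.61, 6.53, 6.38 and 6.46 in wild type and 6.79, 6.45, 6.61 and 6.58 in knockout replicates 1 to 4. Its difference was 0.12, with a 95% interval from -0.07 to 0.31 (limma adjusted p = 0.517). The values of the genotypes were interleaved. Pax9 read 6.66, 6.31, 5.79 and 5.94 in wild type and 6.49, 6.38, 6.05 and 6.11 in knockout, a difference of 0.08 with an interval from -0.31 to 0.48 (limma adjusted p = 0.84). Nkx3-2, a homeobox factor induced in sclerotome downstream of Pax1 and Pax9, read 7.34, 6.72, 6.28 and 5.96 in wild type and 6.90, 6.31, 6.22 and 6.50 in knockout, a difference of -0.09 with an interval from -0.67 to 0.48 (limma adjusted p = 0.883). For Pax1, Pax9 and Nkx3-2 alike the wild type arrays alone covered a wider range than the difference between the genotypes. In log2 signal, a difference of the size seen for Uncx lies outside the intervals of all 3. Their signal was low, at the 24.9th to 34.8th percentile, where array signal understates differences. Pax9 and Nkx3-2 still ranged widely among the wild type arrays, from 5.79 to 6.66 and from 5.96 to 7.34. How far the signal of each gene understates a change was not measured, so the intervals are not read as excluding such a change in RNA.

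The dermomyotome factors Pax3 and Pax7 lay slightly higher in knockout without passing. Pax3, which is needed for migrating muscle precursors, read 6.003, 6.15, 6.11 and 5.93 in wild type and 6.25, 6.28, 6.25 and 6.05 in knockout replicates 1 to 4. The first 3 knockout arrays were above every wild type array, and replicate 4 was among the wild type values. The difference was 0.16, with a 95% interval from -0.01 to 0.33 (limma adjusted p = 0.332). Pax7, its paralog, later found in muscle stem cells, read 6.17, 6.18, 6.10 and 5.98 in wild type and 6.34, 6.03, 6.18 and 6.32 in knockout (0.11, interval -0.08 to 0.30, limma adjusted p = 0.535). The presomitic factor Tbx6, a T-box protein that commits progenitors to paraxial mesoderm rather than neural tissue, read 6.22, 6.22, 6.32 and 6.32 in wild type and 6.43, 6.37, 6.20 and 6.45 in knockout. Its groups overlapped, since the lowest of all 8 arrays was a knockout array, and the difference was 0.09 with an interval from -0.07 to 0.25 (limma adjusted p = 0.55).

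The factors of the whole somite did not move as 1 group. Meox1 and Meox2 are paralogous homeobox genes that act together in the somite, Meox1 also in derivatives of the sclerotome and Meox2 also in limb muscle. Meox2 read 9.66, 9.59, 9.74 and 9.64 on wild type replicates 1 to 4 and 9.10, 9.09, 9.34 and 9.09 on knockout replicates 1 to 4. Knockout replicates 1, 2 and 4 lay within a narrow band and replicate 3 stood above them, still below every wild type array. The Meox2 mean went from 9.66 ± 0.06 to 9.16 ± 0.12 (SD, n = 4 each), so it fell by 0.50 in log2 signal (SE 0.08), 1.41-fold, with a limma adjusted p of 0.0117.

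Meox1 read 9.38, 9.36, 9.04 and 8.80 in wild type and 7.72, 8.22, 8.76 and 8.12 in knockout replicates 1 to 4. The gap between the lowest wild type array (replicate 4) and the highest knockout array (replicate 3) was small beside the spread within each genotype. The means were 9.15 ± 0.28 and 8.21 ± 0.43 (SD, n = 4 each). Its difference of -0.94 (SE 0.20) is 1.92-fold, with a 95% interval from -1.38 to -0.49 and a limma adjusted p of 0.0517. Meox1 thus had the wider interval and Meox2 the smaller but tighter difference. Tcf15, the basic helix-loop-helix factor paraxis that makes somites epithelial, read 7.50, 7.56, 7.43 and 7.41 in wild type and 7.43, 7.23, 7.60 and 7.49 in knockout. Its highest and its lowest array were both knockout arrays, and the difference was -0.04 with an interval from -0.22 to 0.15 (limma adjusted p = 0.857).

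**Figure D2:**
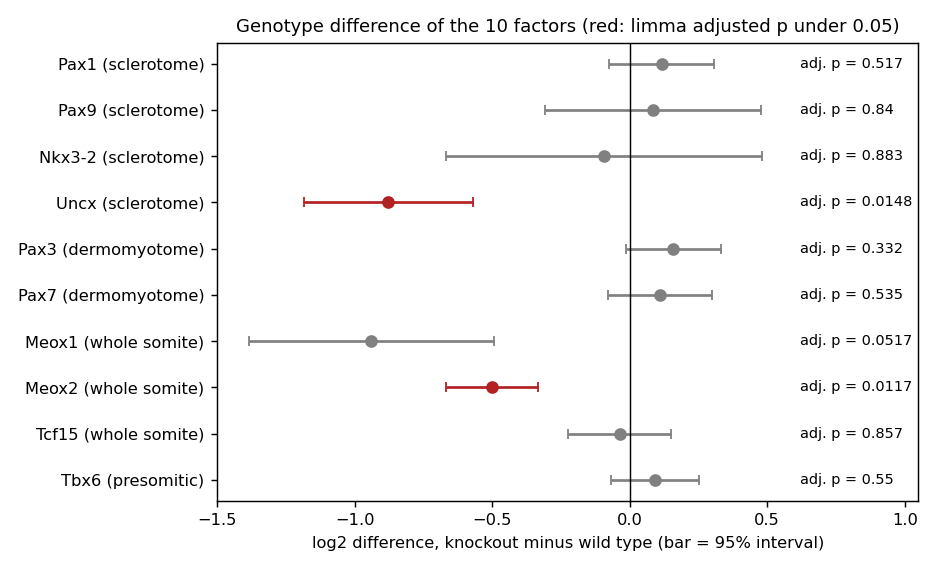
Difference between the genotypes for each factor on the log2 scale, knockout minus wild type, with its 95% interval from the limma fit and the adjusted p over all genes. Uncx at -0.88 and Meox2 at -0.50, in red, passed the threshold. Meox1 at -0.94 has an interval that excludes 0 and an adjusted p of 0.0517, and the intervals of the other 7 factors include 0.

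The spread within a genotype differed among the factors. Pooled over both genotypes the SD was 0.47 for Nkx3-2, 0.36 for Meox1, 0.32 for Pax9 and 0.24 for Uncx, which is the 99.2th, 98.1th, 96.8th and 91.7th percentile of the SD of all genes. The SD of the other 6 factors lay between 0.09 and 0.12, at or below the 51st percentile. Pax1, Pax9 and Nkx3-2 varied together: each was highest within its genotype on wild type replicate 1 and on knockout replicate 1. On wild type replicate 1 they exceeded the genotype mean by 0.12, 0.49 and 0.76, and on knockout replicate 1 by 0.18, 0.23 and 0.42. The dermomyotome factor Pax7 ran with them in part: it deviated by 0.12 on knockout replicate 1, its highest there, and by 0.07 on wild type replicate 1. Over the 8 arrays the deviations of Pax7 correlated at r = 0.727 with Pax1, 0.687 with Nkx3-2 and 0.317 with Pax9, beside 0.63 to 0.874 among Pax1, Pax9 and Nkx3-2. Uncx shared this pattern in wild type only: it was highest there on replicate 1 (0.19) but at -0.05 on knockout replicate 1. The wild type part was common to most members, with 8 of the 10 above the genotype mean on replicate 1. On wild type replicates 2, 3 and 4 this count was 7, 4 and 1, and on knockout replicates 1 to 4 it was 6, 4, 5 and 5. The share of all genes above their genotype mean on each array is not given here, so an effect of the whole array was not tested. Meox1 deviated from its mean by -0.49 on knockout replicate 1 and by 0.55 on knockout replicate 3. On knockout replicate 3 Meox2 (0.18) and Tcf15 (0.16) were also at their highest within the knockout group, and Tbx6 (-0.16) at its lowest. Over all 45 pairs of members the median r was 0.104, with 9 pairs above 0.5 and 4 below -0.5. The r largest in size was -0.899, between Meox1 and Tbx6. The pairs named here are a selection from these 45.

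**Figure D3:**
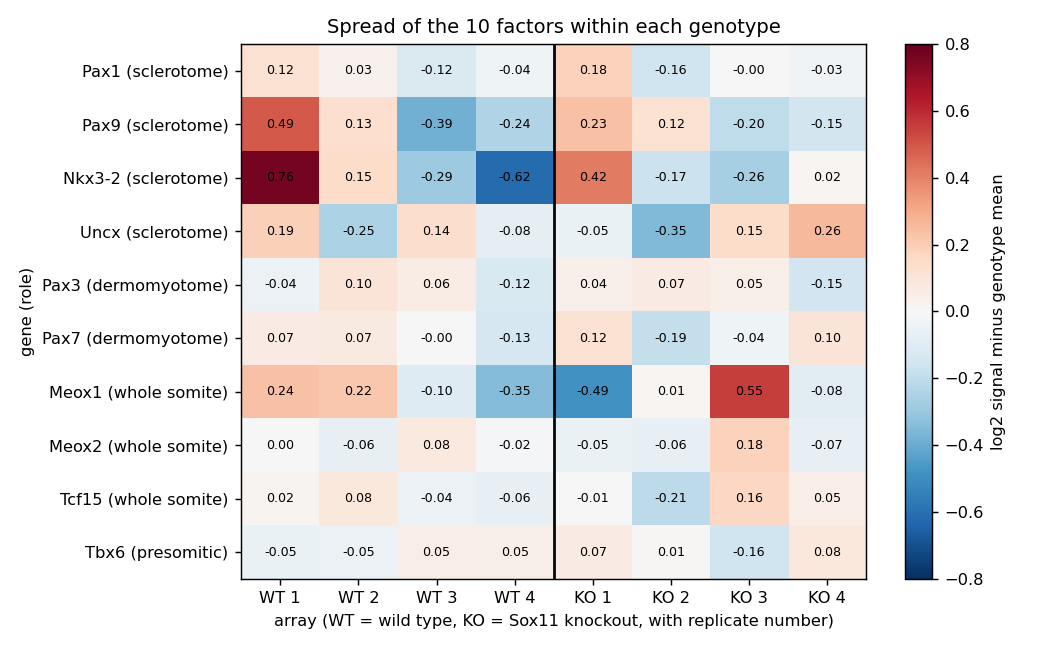
Deviation of each factor from the mean of its genotype on each array, in log2 units, red above and blue below the mean. Pax1, Pax9 and Nkx3-2 were high together on wild type replicate 1 and knockout replicate 1, while Meox1 ran from -0.49 to 0.55 among the knockout arrays.

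Promoters of the factors that fell are printed to show the sequence upstream of each gene, with matches to 3 binding motifs. RefSeq's table for GRCm38.p6 held a promoter for 7 of the 10 members, and the 250 bases before the start were searched on both strands. The SOX motif was searched as NNCAANG with A or T at each N, the core of the paired-type homeodomain motif as TAATTA, and the MEF2 motif by its usual consensus, the last pair chosen after the sequences were seen. Capitals mark the matches, which do not overlap each other. The Uncx promoter is at chr5:139543648-139543897 on the plus strand and the Meox2 promoter at chr12:37108290-37108539 on the plus strand, both in GRCm38.p6.
Uncx: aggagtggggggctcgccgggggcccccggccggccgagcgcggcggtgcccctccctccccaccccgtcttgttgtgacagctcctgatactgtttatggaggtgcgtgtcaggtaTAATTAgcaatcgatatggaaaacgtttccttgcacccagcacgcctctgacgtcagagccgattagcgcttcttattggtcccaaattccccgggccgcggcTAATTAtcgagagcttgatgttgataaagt
Meox2: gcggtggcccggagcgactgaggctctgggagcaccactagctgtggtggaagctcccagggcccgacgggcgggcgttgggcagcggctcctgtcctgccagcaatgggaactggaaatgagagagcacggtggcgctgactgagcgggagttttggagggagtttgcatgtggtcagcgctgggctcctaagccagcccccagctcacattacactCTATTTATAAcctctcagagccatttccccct
The Uncx promoter holds TAATTA at 133 and at 30 bases before the start. The Meox2 promoter holds letters that match the MEF2 consensus, from 32 to 23 bases before the start. Only these 3 motifs were searched. Motifs of the core promoter were not, so whether the same letters match one was not tested. Among 32851 promoters of the same length, 4.84% hold TAATTA, 2.92% a MEF2 match and 21.8% a SOX match. Since TAATTA and MEF2 were chosen with the sequences seen, their shares do not measure how unusual the matches in Uncx and Meox2 are. Of the 7 member promoters only Pax9 has a SOX match, so the Uncx and Meox2 promoters have none. Tbx6 also has TAATTA. A match of letters is a description and no evidence of binding.

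Genes that work with these factors were read from lists of sclerotome, muscle and segmentation genes. In the sclerotome and cartilage list 0 of 18 measured genes passed limma's test over all genes, with a median difference of -0.04, and 3 were lower at an unadjusted p under 0.05, where 16.7% of all genes had such a p in either direction. These were Foxd2, a forkhead factor of somites and kidney mesenchyme (-0.23, SE 0.07, limma adjusted p = 0.156), Sox5, a cartilage factor (-0.22, SE 0.09, limma adjusted p = 0.226), and Twist1, a mesenchymal basic helix-loop-helix factor (-0.26, SE 0.11, limma adjusted p = 0.285). Next in order came Matn4, a matrix protein, at 0.16 (limma adjusted p = 0.426). The chondrogenic regulator Sox9 was at -0.04 and the cartilage collagen Col2a1 at -0.05. With 1.44% of all genes called in either direction, 0 calls in a list of this size is near the background.

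In the dermomyotome and myotome list 0 of 18 measured genes passed limma's test and the median was 0.04. Of the 18, 13 lay above 0, beside 9650 of the 19356 genes measured. At an unadjusted p under 0.05 it had 4 higher and 0 lower genes, where 16.7% of all genes had such a p in either direction. These 4 did not overlap between the genotypes, as was so for 10.5% of all genes. Cdh15, the cadherin of muscle precursors, was at 0.24 (SE 0.06, limma adjusted p = 0.094) and Lbx1, a homeobox gene of migrating muscle precursors, at 0.24 (SE 0.07, limma adjusted p = 0.138). Myog, a myogenic regulator, was at 0.21 (SE 0.07, limma adjusted p = 0.17) and Sim1, a gene of the lateral dermomyotome and also of the nephric duct, at 0.29 (SE 0.10, limma adjusted p = 0.181). The early myogenic regulators Myf5 and Myod1 were at 0.04 and -0.03.

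In the presomitic and segmentation list 0 of 19 measured genes passed limma's test, with a median of 0.01. At an unadjusted p under 0.05, 1 was higher and 2 were lower, near the 16.7% of all genes with such a p in either direction. Lfng, which modifies Notch in the segmentation clock, was at -0.27 (SE 0.07, limma adjusted p = 0.0968). Pcdh8, the paraxial protocadherin, was at -0.33 (SE 0.10, limma adjusted p = 0.157). Msgn1, a target of Tbx6 in the presomitic mesoderm, was at 0.19 (SE 0.07, limma adjusted p = 0.222), and Ripply1, which ends Tbx6 activity at the segment border, was at 0.22 (SE 0.10, limma adjusted p = 0.304).

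Markers of the dissected tissue and of its neighbours are given beside these results, since several of the factors are used there too. The intermediate mesoderm and kidney list had all 12 genes measured and 11 above the median signal, with array means between 9.77 and 9.87 in wild type and between 9.77 and 9.85 in knockout. Its genes with the lowest p were Ret, the duct receptor, which rose by 0.41, and Six2, a nephron progenitor factor, which fell by 0.48 in log2 signal, with limma adjusted p-values of 0.022 and 0.0437; the other 10 did not pass. At an unadjusted p under 0.05, 3 of its genes were higher and 3 lower, beside 16.7% of all genes in either direction, and the groups did not overlap for 5 of the 12, beside 10.5% of all genes. Besides Ret and Six2 these 5 were Lhx1, a homeobox factor of the nephric duct, at 0.42, Eya1, a factor of kidney mesenchyme, at -0.28, and Gata3, a duct factor, at 0.25 (limma adjusted p = 0.0577, 0.0609 and 0.0845). The list had 4 genes past the threshold when only genes above the 25th percentile or the median of signal were tested, and also with eBayes set to trend and robust, against 0 without moderation. Single kidney markers thus parted between the genotypes in both directions, as Uncx, Meox1 and Meox2 did in one; the part of kidney mesenchyme in the lower signal of Uncx and Meox1 was not tested. The neural crest list had 1 of 7 measured genes called higher, beside 0.362% of all genes. This was Erbb3, a neuregulin receptor of crest and glia, at 0.36 (SE 0.07, limma adjusted p = 0.0417). Ngfr was at -0.46 and Foxd3 at -0.48 (limma adjusted p = 0.0931 and 0.229). With any of the 8 arrays left out Erbb3 missed the threshold (limma adjusted p 0.0569 to 0.113), Six2 missed it in 7 of the 8 fits, all but that without wild type replicate 1 (up to 0.122), and Ret in 5, all but those without wild type replicates 1 and 4 and knockout replicate 4 (up to 0.0764). Array means of the crest list were 8.02 to 8.16 in wild type and 7.99 to 8.14 in knockout.

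Markers of the neural tube, hindlimb bud and hindgut gave 0 calls among 12, 10 and 9 measured genes with limma. At an unadjusted p under 0.05 the counts were 2, 2 and 1, where 16.7% of all genes had such a p in either direction. In the neural tube list, where 1 of 12 genes lay above the median signal, Dbx1 was at 0.22 and Irx3 at 0.40 (limma adjusted p = 0.14 and 0.202), and the array means were 6.41 to 6.58 in wild type and 6.48 to 6.61 in knockout. In the hindlimb list Lmx1b, the dorsal limb factor, was at -0.18 and Msx1 at 0.16 (limma adjusted p = 0.185 and 0.286). The array means of the hindlimb list ranged more widely, from 7.80 to 8.31 in wild type and from 7.89 to 8.36 in knockout, and those of the hindgut list from 7.90 to 8.36 and from 7.99 to 8.41. In the hindgut list the keratin genes Krt18 and Krt8 were at 0.19 and 0.23 (limma adjusted p = 0.252 and 0.308). The array means of all 5 lists overlapped between the genotypes, but a list mean says little here, since within a list some genes were higher and others lower.

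**Figure D4:**
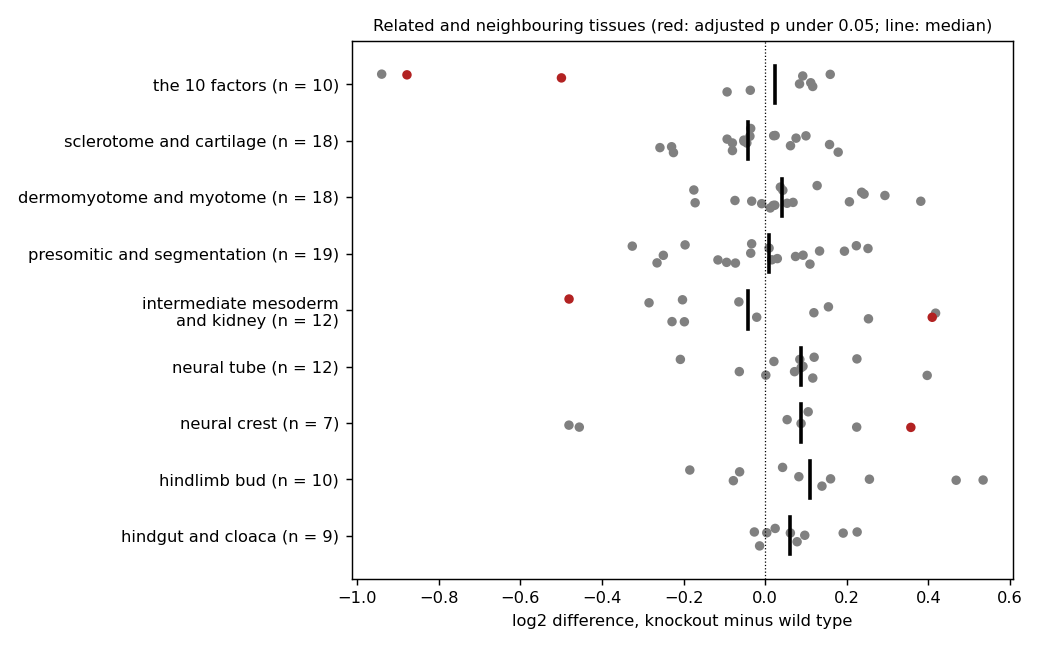
Difference between the genotypes, in log2 units, for the 10 factors and for each measured gene of the 3 lists of somite genes and the 5 lists of tissue markers, with a black line at each median and genes past the threshold in red. Uncx, Meox1 and Meox2 lie farther to the left than any gene of the 8 lists, whose medians run from -0.04 to 0.11. Meox2 at -0.50 does so only narrowly, beside Foxd3 and Six2 at -0.48.

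Meox2 and Pax9 share chromosome 12 with Sox11, and of 52 measured genes between Sox11 and Meox2 only Alkal2, a ligand of ALK, passed (0.61, limma adjusted p = 0.00309). The measured neighbours of Meox2 are Sostdc1 (-0.19, limma adjusted p = 0.484) and Agmo (0.10, limma adjusted p = 0.687), so neither flanking gene was called. Of 100 measured genes between Sox11 and Pax9, which include these, 2 were lower (Meox2 and Baz1a) and 1 higher (Alkal2), or 3% beside 1.44% of all genes in either direction. The neighbours of Pax9 are Nkx2-9 (0.28, limma adjusted p = 0.129) and Slc25a21 (0.25, limma adjusted p = 0.274). Alkal2 and Baz1a were named with their values in view; Alkal2 passed with any 1 array left out, and Baz1a in 1 of 8 such fits, that without wild type replicate 4 (otherwise up to a limma adjusted p of 0.115). The part of the shared chromosome in the Meox2 difference was not tested. Uncx and Meox1 lie on other chromosomes.

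Genes with the most similar array-to-array pattern were looked up among genes above the median signal, by Pearson's r of deviations from the genotype means over the 8 arrays. Over so few arrays, a search through 9677 genes returns high values for any target, and the result is a description. For Uncx they were Isca1 (r = 0.995), Sfrp2 (r = 0.982) and Rab7 (r = 0.978). For Meox2 they were Engase (r = 0.966), Timm13 (r = 0.957) and Xpo6 (r = 0.956). For Meox1 they were Nipsnap2 (r = 0.987), Ccnd2 (r = 0.949) and Fam53b (r = 0.946). None of these 9 genes passed limma's test between the genotypes, with differences from -0.15 (Ccnd2) to 0.19 (Isca1). Over the signals themselves, which include the difference between the genotypes, r was 0.961 for Ccnd2 and 0.897 for Fam53b with Meox1 and 0.626 for Sfrp2 with Uncx, and between -0.187 and 0.237 for the other 6.

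The 3 factors with lower signal were recomputed under 19 other ways of processing the arrays. Uncx stayed between -0.96 and -0.76 and passed in 17 of the 19, the exceptions being a linear model without moderation (adjusted p = 0.109) and the fit without knockout replicate 1. Meox2 stayed between -0.56 and -0.47 and passed in 18 of 19, missing the threshold without moderation (adjusted p = 0.0646). Meox1 stayed between -1.12 and -0.78 and passed in 7 of 19, with limma adjusted p-values from 0.0162 without knockout replicate 3 to 0.141 without wild type replicate 2, and 0.182 without moderation. Y-linked genes gave signal on wild type replicate 1 and knockout replicates 3 and 4, with array means of 10.06, 9.88 and 9.84 against 5.31 to 5.58 on the other arrays. With this signal as a covariate Uncx was at -0.95, Meox2 at -0.51 and Meox1 at -1.03, and all 3 passed (limma adjusted p = 0.00428, 0.02 and 0.0358).

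Testing fewer genes brought Meox1 past the threshold. Among the 14517 genes above the 25th percentile of mean signal 7 of the 10 members remained, and Uncx, Meox1 and Meox2 were called lower, beside 1.77% of those genes. Among the 9678 genes above the median the members that remained were these 3, all called lower (limma adjusted p = 0.0105 for Uncx, 0.0364 for Meox1 and 0.0063 for Meox2), beside 2.96% of those genes. A member that is kept by its own signal is not a random one, so these shares describe the filter as well as the genes.

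**Figure D5:**
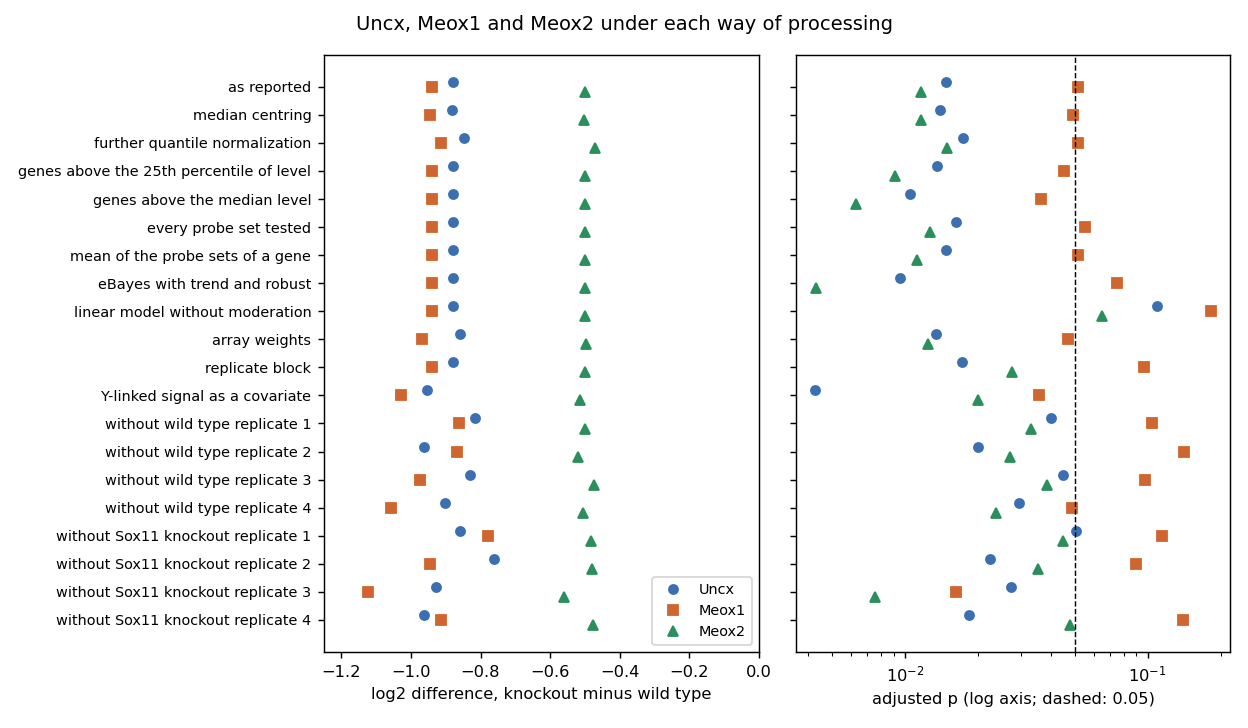
Difference between the genotypes in log2 units (left) and adjusted p on a log axis (right) for Uncx, Meox1 and Meox2 as reported and under each of 19 other settings, with the threshold of 0.05 dashed. The differences change little, while the adjusted p of Meox1 moves to both sides of the threshold.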

How the data were processed

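Expression was measured on 8 arrays, 4 wild type and 4 Sox11 knockout. Per the labels' protocols, total RNA was depleted of ribosomal RNA, amplified with a whole-transcript kit and labelled with biotin. The authors deposited 1 log2 signal per probe set and array; RMA and Partek are named in the submitters' processing notes, while no source used here gives the settings, filters or build. The log2 scale of the deposited values was read from their range, 4.30 to 14.6, and from array medians between 7.29 and 7.31. Because RMA equalizes the arrays, a shift shared by all genes would be hidden.

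Of 27478 probe sets, 21103 had exactly 1 symbol in the platform annotation, 1531 several and 4844 none. Symbols were set against RefSeq's GRCm38.p6 table, where 80 had no entry and 0 changed. Per gene the probe set of highest mean was kept (19356 genes), with no filter on low signal. The test of genotype used lmFit and eBayes of limma 3.58.1 under R 4.3.3 (two-sided, Benjamini-Hochberg over all genes), tested on simulated data. Figures used matplotlib 3.10.9.

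The members and lists were chosen with earlier results of these data known. Named were all members, Sox11, list genes past the threshold, the 4 of lowest p in somite lists and 2 in marker lists, 3 genes of most similar pattern, and neighbours of Meox2 and Pax9; further genes of a list are examples picked with their values in view. The closing section gives the alternatives tried.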

Additional observations from a re-analysis of the deposited data

Results flagged for a closer look

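In 2 of 22 groups of 4 arrays examined, 1 array stood apart from the other 3 by more than Dixon's 95% critical value for the gap over the range; chance flags about 1 in 20 groups. Knockout replicate 3 was at 9.34 for Meox2, above the other knockout arrays and below the wild type arrays, and without it the Meox2 difference was -0.56 (limma adjusted p = 0.00751). Knockout replicate 4 was at 6.05 for Pax3, below the other knockout arrays and within the wild type range.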

How the results depend on the processing

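Signs held throughout for Uncx, Meox1, Meox2, Pax1, Pax3, Pax7 and Tbx6 under the 17 to 19 alternatives in which each was tested. Leaving out 1 array moved Nkx3-2 from -0.30 to 0.16 (above 0 without wild type replicate 1), Pax9 from -0.044 to 0.25 (below 0 without wild type replicate 3) and Tcf15 from -0.091 to 0.033 (above 0 without knockout replicate 2). The count of 279 genes was 55 without moderation, 166 with the replicate block, 151 with the Y-linked covariate, 683 at an adjusted p under 0.1, 71 at 0.01, and 107 to 243 when 1 array was left out. The count of 2 members was 0 without moderation and at 0.01 (against 3 at 0.1), and 1 (without knockout replicate 1) to 3 when 1 array was left out. The median over the members was -0.093 and -0.88 with genes above the 25th percentile and the median of signal, which keep 7 and 3 members. Same-numbered arrays deviated together at -0.17, 0.09, -0.04 and 0.06 (Pearson's r across genes), so the numbers were not taken to pair the samples; with the replicate block Uncx and Meox2 had limma adjusted p = 0.0172 and 0.0276, and Meox1 0.0965. Low signal limits what can be said of Pax3, Pax7, Pax9, Tbx6, Nkx3-2 and Pax1.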
